A study of Mus musculus with 3 samples.

Results

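The cadherin superfamily was followed in NIH3T3, an established line of mouse embryonic fibroblasts, as 43 of the 15554 genes in the expression table. The genes were taken by symbol: the classical and other cadherins (*Cdh*), the desmogleins and desmocollins (*Dsg*, *Dsc*), the protocadherins (*Pcdh*), and the *Fat*, *Dchs* and *Celsr* genes. Cells were grown with serum, kept in serum-free medium for 24 h, and then given fresh serum-free medium for another 24 h, with no addition (CTRL), with 100 ng/mL GDF15 (the GDF15 library) or with TGF-β at a dose of 4 ng/mL (the TGF-β library). Both factors are secreted proteins of the TGF-β superfamily. The RNA of a treatment was pooled, and 1 library of polyadenylated RNA was sequenced per treatment, so the differences below come without replicates and without p-values. The values are FPKM, fragments per kilobase of transcript scaled to the mapped fragments of the library, which allow levels to be compared between genes. The table holds a selection of the family, and *Fat1*, *Dchs2*, *Pcdh1*, *Pcdh7*, *Pcdh9*, *Pcdh10*, *Pcdh17*, *Cdh18* and *Cdh19*, among others, were not analysed here.

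Cadherins are calcium-dependent adhesion proteins whose extracellular repeats bind the same or a related protein on the neighbouring cell. Classical cadherins hold the actin cytoskeleton at adherens junctions through the catenins, desmosomal cadherins hold keratin filaments, and protocadherins have other cytoplasmic partners and are best known from the sorting of neurons. E-cadherin (*Cdh1*) marks epithelia and N-cadherin (*Cdh2*) marks mesenchymal and neural cells, and TGF-β is known for shifting epithelial cells from the former to the latter. Fibroblasts lie on the mesenchymal side before any stimulation.

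The label of fibroblasts was checked on marker genes. Of 11 fibroblast markers, 10 averaged an FPKM of 1 or more, and *Lum* was listed at 0 in CTRL and GDF15. Of 12 epithelial markers, 6 were listed at 0 in all 3 libraries, among them *Epcam* and *Krt19*, and the summed FPKM of the list was 0.169 without stimulation, 0.223 with GDF15 and 0.268 with TGF-β. The 8 endothelial markers summed to between 0.396 and 0.567, and the 6 myoblast markers to between 0.481 and 0.559, with *Myod1*, *Myf5*, *Myog* and *Pax7* at 0. In bulk RNA, fewer cells of a type and less RNA per cell cannot be told apart.

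Most of the family was silent or close to it. Only 4 of the 43 genes (9.3%) averaged an FPKM of 1 or more, against 59.3% of all genes in the table. These were *Pcdh19*, *Cdh2*, *Pcdh18* and *Cdh24*, and just below the limit stood *Cdh11* (mean FPKM 0.937) and *Pcdhb14* (0.861). These 2 were among 9 genes between 0.1 and 1, and 18 lay above 0 but under 0.1. *Pcdh19*, *Cdh2* and *Pcdh18* together made up 85.2% of the summed FPKM of the family without stimulation, 89.0% with GDF15 and 90.4% with TGF-β. Where 3 values of a gene are given below with no names, they stand in the order CTRL, GDF15, TGF-β.

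The promoters of the expressed protocadherins are shown first, because these genes differed most from CTRL on the log2(FPKM + 1) scale among the 4 expressed genes, with that of *Cdh24* beside them as the one that differed least there. The RefSeq windows (GRCm38.p6) run from 250 bases before to 50 bases after the transcription start. All are on the minus strand and are printed 5′ to 3′ as the gene reads, with 5-letter matches to CCAAT and CAGAC, on either strand, in capitals. The windows are chr3:49757267-49757566 for *Pcdh18*, chrX:133688944-133689243 for *Pcdh19* and chr14:54641315-54641614 for *Cdh24*.
Pcdh18: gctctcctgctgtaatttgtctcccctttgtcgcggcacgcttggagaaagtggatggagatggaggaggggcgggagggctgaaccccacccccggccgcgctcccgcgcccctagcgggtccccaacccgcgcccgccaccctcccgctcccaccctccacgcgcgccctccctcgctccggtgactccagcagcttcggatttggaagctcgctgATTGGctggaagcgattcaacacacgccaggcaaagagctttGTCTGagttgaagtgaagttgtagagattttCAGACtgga
Pcdh19: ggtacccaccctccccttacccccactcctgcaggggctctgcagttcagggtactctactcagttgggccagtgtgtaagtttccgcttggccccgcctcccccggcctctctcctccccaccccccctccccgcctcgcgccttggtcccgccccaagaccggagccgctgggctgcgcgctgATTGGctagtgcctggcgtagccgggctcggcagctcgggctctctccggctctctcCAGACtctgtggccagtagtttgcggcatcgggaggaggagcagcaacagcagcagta
Cdh24: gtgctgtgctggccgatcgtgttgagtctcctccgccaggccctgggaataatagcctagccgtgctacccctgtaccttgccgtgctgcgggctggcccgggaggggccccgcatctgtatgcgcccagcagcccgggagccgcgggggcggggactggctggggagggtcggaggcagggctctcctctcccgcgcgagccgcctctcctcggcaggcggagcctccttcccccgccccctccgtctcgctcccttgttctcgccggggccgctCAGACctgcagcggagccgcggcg

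CCAAT is the box bound by the factor NF-Y, and CAGAC is the short element that Smad proteins, the nuclear effectors of TGF-β, contact. With the start as position 1 and a motif placed by its first printed base, *Pcdh18* and *Pcdh19* each held 1 CCAAT box on the opposite strand, at -32 and -65, and *Cdh24* held none. CAGAC matches stood at 42 and, on the opposite strand, at 11 in *Pcdh18*, at -8 in *Pcdh19* and at 27 in *Cdh24*. Neither motif is rare, since 37.9% of the 27025 promoters of the table hold CCAAT, 49.7% hold CAGAC and 18.6% hold both. The E-box CAGGTG (in 5413 of the 27025 promoters) and TATAAA (in 14.2%) were in none of the 3 windows on either strand. These are matches of letters, and no binding was measured.

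**Figure D1:**
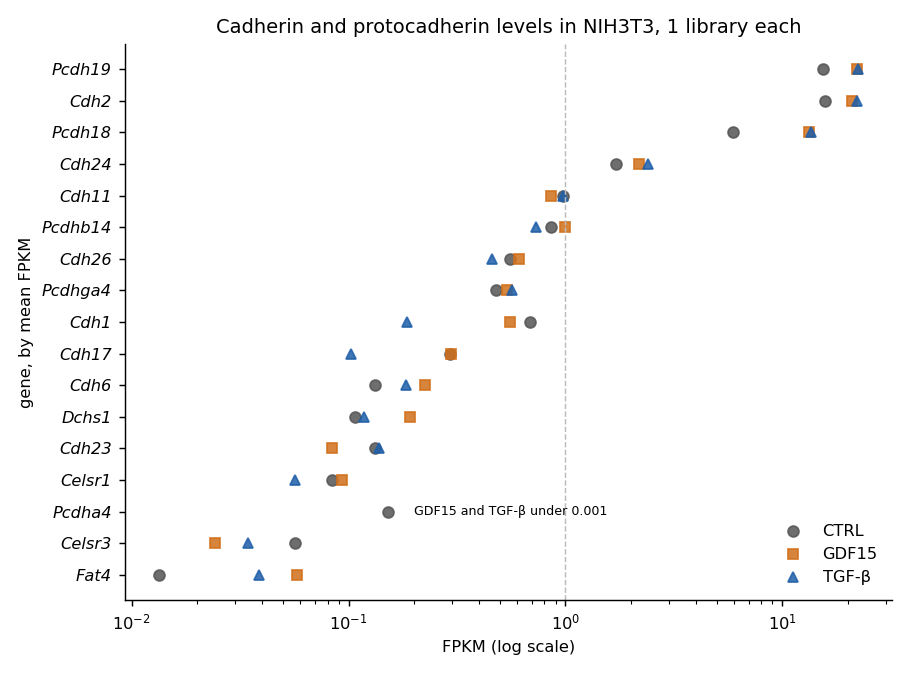
FPKM (log axis) in CTRL (circles), GDF15 (squares) and TGF-β (triangles) of the 17 genes with at least 10 estimated fragments in a library, ordered by mean FPKM, with a dashed line at 1. *Pcdh19*, *Cdh2*, *Pcdh18* and *Cdh24* lie above 1 with CTRL lowest in each, whereas *Cdh1* and *Cdh17* have their lowest value in TGF-β.

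*Pcdh18*, a protocadherin of the delta group that lies outside the gene clusters (chr3:49743296-49757325, GRCm38), was the gene of the family that changed most among those above an FPKM of 1. It stood at an FPKM of 5.89 without stimulation, 13.3 with GDF15 and 13.5 with TGF-β. Both stimulated libraries were more than 2-fold above CTRL and lay close together. The ratio to CTRL was 2.26 in GDF15 (95% counting interval 2.05 to 2.50) and 2.29 in TGF-β (2.07 to 2.54), from an estimated 546, 1442 and 1196 fragments. These intervals, here and below, are exact binomial ones on fragments estimated from the depth of each library, and they cover counting error only.

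On the log2(FPKM + 1) scale, where the pseudocount of 1 shrinks changes of low genes, *Pcdh18* was 1.06 above CTRL with GDF15 and 1.07 above it with TGF-β. It was the only gene of the 43 to pass the 2-fold criterion of the study by either stimulus, where 0.289% of all genes passed by GDF15 and 0.913% by TGF-β. It was also the only one past 1.5-fold, against 1.81% and 3.6% of all genes. For want of replicates, the yardstick for a change was the local spread, the scaled median absolute deviation among genes of similar expression. Less the local median, the change of *Pcdh18* was 5.12 local spreads by GDF15 and 5.13 by TGF-β.

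*Pcdh19*, an X-linked delta protocadherin known to associate with N-cadherin (chrX:133582860-133688987), had the highest mean FPKM of the family. It stood at 15.4 without stimulation and at 22.2 with either factor, and the stimulated libraries were alike. The ratio to CTRL was 1.44 by GDF15 (1.38 to 1.51) and 1.44 by TGF-β (1.37 to 1.51), with a change of 0.50 for both, which amounted to 2.60 and 2.68 local spreads. In the annotation used, *Pcdh19* shares 57 exon bases with a noncoding gene on the opposite strand, and *Pcdh18*, *Cdh2*, *Cdh24* and *Cdh1* share none with any other gene.

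N-cadherin, *Cdh2* on chromosome 18, was the leading classical cadherin. Its FPKM was 15.8 without stimulation, 20.9 with GDF15 and 22.1 with TGF-β. CTRL was again the lowest library. The ratio to CTRL was 1.32 by GDF15 (1.23 to 1.42) and 1.40 by TGF-β (1.304 to 1.502), and the change of 0.38 and 0.46 was 2.003 and 2.37 local spreads. Per length, *Pcdh19* and *Cdh2* were at one level, with a ratio of *Pcdh19* to *Cdh2* of 0.975, 1.06 and 1.005 in the 3 libraries.

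*Cdh24*, a classical cadherin of type II that binds catenins (chr14:54631231-54641364), was expressed about an order of magnitude lower. Its FPKM was 1.71, 2.18 and 2.40. The order of the libraries was that of *Cdh2*, but only the interval for TGF-β left out 1, with a ratio of 1.40 (1.08 to 1.82) against 1.27 for GDF15 (0.988 to 1.65). The change was 0.23 and 0.32, or 1.17 and 1.52 local spreads.

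The 4 genes above a mean FPKM of 1 were thus all higher in both stimulated libraries than in CTRL, where 44.4% of the 9226 genes at this level were higher with GDF15 and 37.2% with TGF-β. Of the 4, 3 exceeded 2 local spreads above the local median by each stimulus, a size reached by 3.57% of genes with GDF15 and 5.58% with TGF-β. The median of their changes stood at 0.44 with GDF15 and 0.48 with TGF-β, beside medians of -0.03 and -0.07 over all genes at this level. Both comparisons share the CTRL library.

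**Figure D2:**
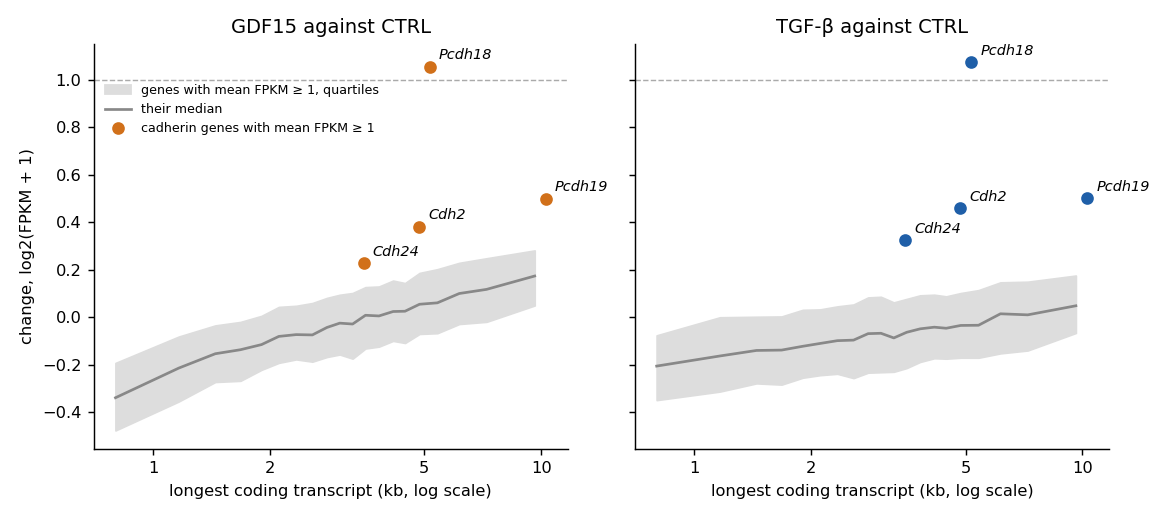
Change on the log2(FPKM + 1) scale against the length of the longest coding transcript (kb, log axis), by GDF15 (left) and TGF-β (right). The grey line and band are the median and quartiles of all genes that average an FPKM of 1 or more in 20 bins of length, points are the 4 cadherin genes at that level, and the dashed line marks 2-fold. *Pcdh18*, *Cdh2* and *Cdh24* lie above the band by both stimuli. *Pcdh19*, at 10.3 kb, lies beyond the end of the band at 9.62 kb and above the upper quartile there. The band itself rises with length.

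Transcript length moved with these changes. The longest coding transcripts of the family had a median of 5.17 kb, against 3.14 kb for the 9226 genes that averaged 1 or more, of which 9189 had a length. Over these genes the median change by GDF15 ran from -0.19 for transcripts up to 2 kb to 0.17 for those over 8 kb. For TGF-β it ran from -0.15 to 0.05. With the trend in length removed, the change by GDF15 was 0.997 for *Pcdh18*, 0.33 for *Pcdh19*, 0.34 for *Cdh2* and 0.24 for *Cdh24*. With length and GC content removed, *Pcdh18* was at 0.94, so that no gene of the family passed 2-fold by GDF15, and the other 3 came to 0.31 for *Pcdh19*, 0.33 for *Cdh2* and 0.34 for *Cdh24*. By TGF-β, *Pcdh18* stayed past it at 1.10 and 1.07. The count of genes past 2 local spreads by GDF15 was 1 of 4 under either removal, with *Pcdh18* the one left, and by TGF-β it was 3 and 4.

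Set directly against each other, the stimulated libraries were close in these 4 genes. None of the 43 passed 2-fold or 1.5-fold between TGF-β and GDF15 on the log2(FPKM + 1) scale, where 0.103% and 1.02% of all genes did. The ratio of TGF-β to GDF15 was 1.01 for *Pcdh18* (0.939 to 1.10), 1.001 for *Pcdh19* (0.959 to 1.04), 1.06 for *Cdh2* (0.994 to 1.13) and 1.10 for *Cdh24* (0.867 to 1.39). All 4 were higher with TGF-β on this scale, as were 39.7% of genes at this level, and 0 of the 4 exceeded 2 local spreads, against 5.38%. Larger differences between the stimuli were seen among genes of low level, for which the ratio of FPKM without a pseudocount is given.

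**Figure D3:**
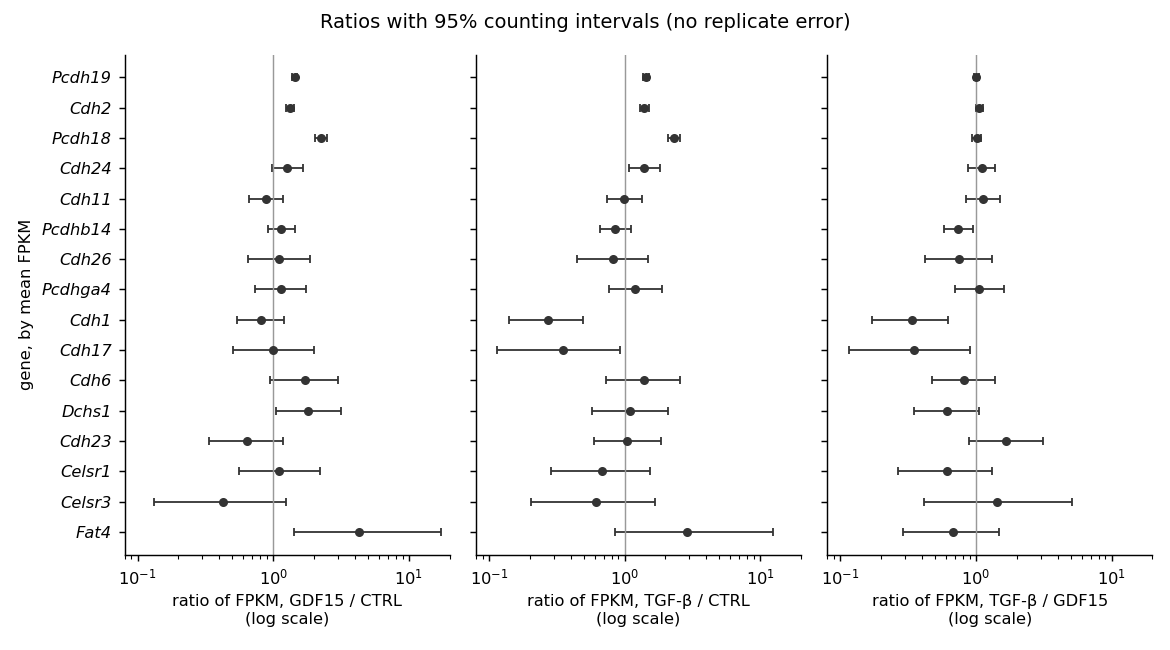
Ratios of FPKM (log axis) for GDF15 over CTRL, TGF-β over CTRL and TGF-β over GDF15, with 95% counting intervals, for the 16 genes with at least 10 estimated fragments in a library and FPKM above 0.001 in all 3. The intervals of *Pcdh18*, *Pcdh19* and *Cdh2* lie above 1 against CTRL, and those of *Cdh1* and *Cdh17* lie below 1 in both panels with TGF-β.

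E-cadherin, *Cdh1* (chr8:106603351-106670246), was present at a low level and was lowest with TGF-β. Its FPKM was 0.685 without stimulation, 0.555 with GDF15 and 0.186 with TGF-β, from an estimated 54.1, 51.1 and 14 fragments. The TGF-β library stood below both others. The ratio to CTRL was 0.272 with TGF-β (0.139 to 0.496) and 0.810 with GDF15 (0.541 to 1.21), and the ratio of TGF-β to GDF15, which does not involve CTRL, was 0.336 (0.172 to 0.616). On the log2(FPKM + 1) scale the change with TGF-β was -0.51, short of 1.5-fold. Of the 6 epithelial markers above 0 in a library, 3 had their highest value with TGF-β (*Cldn7*, *Krt18* and *Tjp3*). Another 2 (*Grhl2* and *Krt8*) were above 0 in every library and lowest with TGF-β, and *Esrp1* was listed at 0 with either factor. The highest of these values was 0.143, for *Cldn7* with TGF-β (longest transcript 1335 bases), and all rest on few fragments. The order of the libraries in these markers therefore cannot be read, and their part in the value of *Cdh1* was not tested.

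The FPKM of *Cdh2* was 23.1 times that of *Cdh1* without stimulation, 37.7 times with GDF15 and 119 times with TGF-β. N-cadherin thus exceeded E-cadherin by far in every library, and between CTRL and TGF-β *Cdh1* differed by more than *Cdh2*, with ratios of 0.272 and 1.40. The step from 23.1 to 37.7 includes a ratio of *Cdh1* by GDF15 of 0.810, whose interval held 1 (0.541 to 1.21). *Cdh3*, P-cadherin, the neighbour of *Cdh1* on chromosome 8, was listed at 0 in CTRL and TGF-β and had an FPKM of 0.0303 in GDF15. Of the other classical cadherins of type I, *Cdh4* (R-cadherin) and *Cdh15* (M-cadherin of muscle) were at 0 in all 3 libraries.

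*Cdh17*, the liver and intestine cadherin, resembled *Cdh1*. It stood at 0.295, 0.295 and 0.103, from an estimated 18, 21 and 5.99 fragments. GDF15 equalled CTRL here, and the ratio of TGF-β was 0.350 to CTRL (0.113 to 0.918) and 0.349 to GDF15 (0.115 to 0.895). Of the 9 genes of the family between 0.1 and 1 FPKM, *Cdh1* and *Cdh17* were below a ratio of 0.5 to CTRL with TGF-β, or 22.2%, against 12.8% of 1011 genes at this level. The same 2 genes were below 0.5 between TGF-β and GDF15, against 6.09%, and 0 of the 9 were with GDF15, against 11.7%. With 9 genes, a difference of these shares from the background cannot be read. *Cdh1* and *Cdh17* were picked with their values in view, as were *Cdh3*, *Cdh5*, *Cdh6*, *Cdh11*, *Cdh23*, *Celsr2*, *Celsr3*, *Fat4*, *Pcdh15* and the *Cdh* and *Pcdh* genes named for being at 0.

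Other type II cadherins were low. *Cdh11*, a cadherin typical of mesenchyme and osteoblasts, was at 0.976, 0.862 and 0.972, and its ratio to CTRL was 0.883 (0.663 to 1.18) and 0.996 (0.742 to 1.33). The libraries did not differ beyond counting error. *Cdh6* stood at 0.132, 0.226 and 0.184, with a ratio of 1.72 by GDF15 (0.951 to 3.02). *Cdh5*, the vascular endothelial cadherin, was at 0.0282, 0.0605 and 0.0444, which corresponds to 2.0, 5.0 and 3.0 fragments.

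*Cdh26*, an epithelial cadherin, had the highest mean of the *Cdh* genes outside types I and II, at 0.556, 0.614 and 0.458. Its 3 values lay within counting error of each other. *Cdh23* and *Pcdh15*, the partners that form the tip links of hair cells, stood at 0.132, 0.0841 and 0.139 and at 1 estimated fragment per library, respectively.

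The large cadherins of planar polarity were at low levels. *Dchs1*, the ligand of *Fat4*, stood at an FPKM of 0.107, 0.193 and 0.118, from an estimated 21.1, 44.3 and 22.2 fragments. GDF15 was the highest library, with a ratio to CTRL of 1.80 (1.04 to 3.18), and TGF-β stayed near CTRL at 1.10 (0.576 to 2.10). *Fat4* itself stood at 0.0134, 0.0576 and 0.0387, from an estimated 3.99, 19.95 and 10.97 fragments, and its ratio was 4.29 by GDF15 (1.44 to 17.2) and 2.88 by TGF-β (0.854 to 12.4). Antisense genes share 1209 and 281 exon bases with *Fat4* on the opposite strand, and a pseudogene shares 648 with *Dchs1*.

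Across the family, the counting intervals were set beside those of all genes with at least 10 fragments in a pair of libraries, a filter that a gene can pass through the library where it is high. With GDF15, 5 of 18 genes (27.8%) had an interval above 1, against 21.2% of all genes, and 1 of 18 (5.56%) had one below 1, against 27.4%. With TGF-β, 4 of 17 (23.5%) lay above, against 17.2%, and 3 of 17 (17.6%) lay below, against 33.1%. Between TGF-β and GDF15, 0 of 16 lay above, against 13.2%, and 3 of 16 (18.8%) lay below, against 24.5%. The family has too few counted genes to read a difference from these shares.

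*Celsr1*, an adhesion receptor that works in planar polarity, was at 0.0837, 0.0929 and 0.0568. *Celsr3* was at 0.0565, 0.0242 and 0.0346, and *Celsr2* had at most 4.07 estimated fragments. None of their intervals against CTRL left out 1 where at least 10 fragments allowed one. Desmosomal cadherins were close to absent, with *Dsc2*, *Dsg2* and *Dsg4* at 0 in all libraries. *Dsg3* led them with an FPKM of 0.0547, 0.0469 and 0.0143, or 6.14 fragments in CTRL and 1.54 in TGF-β.

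The clustered protocadherins were listed by 1 gene each for the alpha, beta and gamma clusters of chromosome 18, which are assembled from a variable first exon and, in alpha and gamma, shared constant exons. *Pcdhb14*, which needs no constant exons, was at 0.860, 0.990 and 0.733. The stimulated libraries lay on either side of CTRL, and the ratio of TGF-β to GDF15 was 0.740 (0.581 to 0.944). *Pcdhga4* stood at 0.477, 0.540 and 0.566, with no interval that left out 1.

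*Pcdha4* had an FPKM of 0.151 without stimulation, 9.63e-06 with GDF15 and 7.67e-06 with TGF-β. An estimated 14.6 fragments in CTRL faced less than 1 in the others. The CTRL value was 5.68 times the floor of 3 fragments in GDF15 and 4.64 times that in TGF-β, before counting error in CTRL. With counting error, the interval of the ratio to CTRL reached up to 0.239 for GDF15 and 0.292 for TGF-β. Over all its transcripts, however, *Pcdha4* shares at least 2860 exon bases with each of 12 other *Pcdha* genes, and *Pcdhga4* shares at least 2116 with each of 21 *Pcdhg* genes. How the fragments of shared exons were divided among genes was not tested, so these values are uncertain. Of the remaining solo protocadherins, *Pcdh12* of endothelium was at 0.0397, 0.0170 and 0.0104, and *Pcdh8* and *Pcdh20* were listed at 0.

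In all, 12 genes of the family were listed at 0 in every library. At the estimated depths, 0 fragments allow an FPKM of up to 0.0223 to 0.0552, depending on the length of the gene and the library. A further 10 genes above 0 had under 3 estimated fragments in each library. Of 117 ribosomal protein and proteasome genes, which every cell uses, 3 were at 0 in any library, and these were *Psma8*, *Psmb11* and *Rpl10l*, known from testis or thymus. The family lay on 13 chromosomes, with 11 genes on chromosome 18 and 8 on chromosome 8, and of these 19 genes only *Cdh2* reached a mean FPKM of 1.

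**Figure D4:**
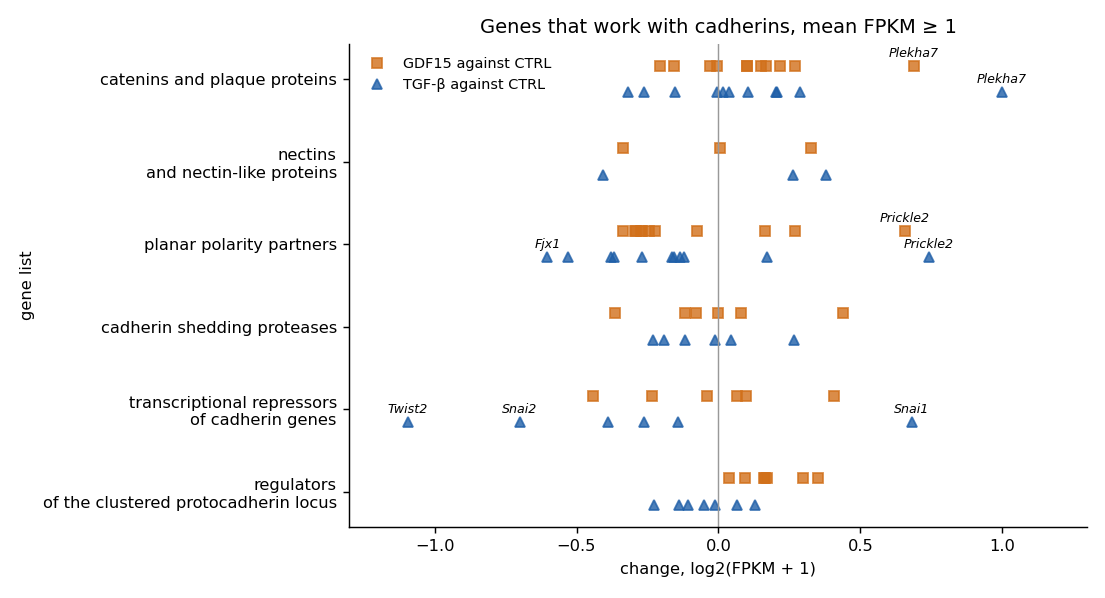
Change on the log2(FPKM + 1) scale by GDF15 (squares) and TGF-β (triangles) of genes that average an FPKM of 1 or more in 6 lists of genes that work with cadherins. Genes past 1.5-fold are named: *Plekha7* and *Prickle2* lie to the right by both stimuli, *Snai1* to the right by TGF-β, and *Twist2*, *Snai2* and *Fjx1* lie to the left by TGF-β.

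Most proteins that join cadherins to the cytoskeleton were expressed and stayed within 1.5-fold. Of 18 listed catenins and plaque proteins, 17 were in the table and 11 averaged 1 or more. By each stimulus 1 of the 17 passed 1.5-fold, against 1.81% of all genes by GDF15 and 3.6% by TGF-β. β-catenin, *Ctnnb1*, was the highest of them, at 115, 128 and 124. The exception was *Plekha7*, an adaptor of the apical adherens junction, which had an FPKM of 1.49, 3.02 and 3.98 and changed by 0.69 with GDF15 and 0.997 with TGF-β, the latter just under 2-fold and 1.07 with length and GC content removed. The medians of the 11 genes were 0.10 and 0.04, beside -0.03 and -0.07 over all genes at this level.

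Among 8 nectins and nectin-like proteins, which adhere beside cadherins, none passed 1.5-fold, against 1.81% of all genes by GDF15 and 3.6% by TGF-β. *Pvrl3* was the highest with 13.7, 17.4 and 18.1. Of 13 partners of planar polarity, 11 were expressed at a mean of at least 1, with medians of -0.25 by GDF15 and -0.16 by TGF-β, and 8 and 9 of the 11 were lower than CTRL, against 55.6% and 62.8% of all genes at this level. *Prickle2*, a cytoplasmic polarity protein, went the other way, from 2.81 to 5.01 and 5.37 (change 0.66 and 0.74). *Fjx1*, related to the Golgi kinase that modifies Fat and Dachsous in flies, went from 4.42 to 3.30 and 2.57 (-0.33 and -0.60). With length and GC content removed, *Prickle2* by GDF15 (0.50) and *Fjx1* by TGF-β (-0.43) were short of 1.5-fold. *Dvl1*, a cytoplasmic effector of Frizzled receptors, was the highest of the list at 31.7, 26.1 and 28.2.

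Of the genes that repress cadherin transcription, 3 of 7 passed 1.5-fold by TGF-β, against 3.6% of all genes, with *Snai1* higher and *Snai2* and *Twist2* lower. *Snai1* was at 13.1, 17.8 and 21.7, a change of 0.41 and 0.68. *Snai2* was at 43.2, 41.9 and 26.2, and *Twist2* at 24.3, 17.6 and 10.9, with changes by TGF-β of -0.70 and -1.09. With length and GC content removed, *Twist2* was at -0.98 by TGF-β, and *Snai1* came to 0.66 by GDF15, past 1.5-fold, and to 0.92 by TGF-β. Of the 7 genes listed, 6 were expressed at a mean of at least 1, and of these 1 was higher and 5 were lower in TGF-β than in CTRL, against 3 and 3 for GDF15. Of all genes at this level, 62.8% were lower in TGF-β and 55.6% in GDF15.

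The 6 proteases that shed and cleave cadherins stayed within 1.5-fold, with *Aph1a*, a subunit of γ-secretase, the highest by mean at 41.6, 38.3 and 36.2. The 7 regulators of the clustered protocadherin locus also did, with *Rad21* the highest at 106, 119 and 98.1. Of all genes, only 1.81% passed 1.5-fold by GDF15 and 3.6% by TGF-β. Of the cadherin-like genes outside the symbols used here, 10 of 13 were in the table, and *Clstn1*, a calsyntenin, was the one with a mean of at least 1, at 99.1, 113 and 106. Among the fibroblast markers, those past 1.5-fold were *Col1a1* (0.60 by GDF15 and 0.79 by TGF-β), *Fn1* (0.64 by GDF15), *Col1a2* (0.66 by TGF-β), *S100a4* (-0.59 by GDF15), and, by TGF-β, *Pdgfra* (-0.79) and *Dcn* (-0.75). With length and GC content removed, *S100a4* came to -0.17 and *Fn1* to 0.54 by GDF15, short of 1.5-fold, and *Col1a2* went from 0.58 to 0.59, just past it.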

How the data were processed

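RNA of NIH3T3 cells was measured in 3 libraries, 1 for each treatment. The authors prepared stranded mRNA libraries from pooled RNA, sequenced them in single-end mode, and deposited FPKM values from Cufflinks for protein coding genes reviewed in UniProt. The submitters' processing notes name TopHat 1.3.2, Bowtie 0.12.9, Cufflinks 2.0.2 and the build mm10, and the annotation and the use of strand in counting are not given in the sources used here. A shared exon or an overlapping gene can therefore move a value.

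Columns were matched to samples by the treatment in their names. Changes are differences of log2(FPKM + 1), computed over the 15554 rows. Local medians and spreads come from the genes nearest in mean expression. Many low FPKM values rise in steps of 1 fragment. Of 57 values of the family under 60 estimated fragments, leaving out those near 0, 34 lay within 0.1 of a whole fragment. Over genes with 1 coding transcript in GENCODE M21 (GRCm38, the build of mm10), with the transcript shortened for fragments of 200 bases as Cufflinks does, the steps gave depths of 18700000, 21800000 and 17800000 fragments for CTRL, GDF15 and TGF-β. Of the lowest steps, 61.4%, 47.2% and 61.7% lay within 2% of the value used. Fragments per gene and exact (Clopper-Pearson) intervals of 95% follow from these depths and cover counting error only, with 3 fragments as the floor. Lengths were found for 15460 rows, 14710 by symbol and 750 by an older symbol. Promoters were found for 22 of the 43 genes. Trends in length and GC content were fitted by lowess on genes that average an FPKM of 1 or more.

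The members and lists were chosen with earlier results of these data known. Genes named are those that average an FPKM of 1 or more, those past 1.5-fold in a comparison, and the highest of each subfamily or list, desmosomal and other cell type genes may be named as being at 0, and other cadherin genes outside this rule are marked. Markers of other cell types were named with their values in view. Alternatives were other pseudocounts, a minimum FPKM, another scaling, and removal of trends with expression, length and GC content. A further marker list is not reported here. Scripts were tested on simulated data. The scripts ran in Python 3.11.15, with pandas 2.3.3 and numpy 2.4.6, and used scipy 1.17.1, statsmodels 0.14.6 and matplotlib 3.10.9.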

Additional observations from a re-analysis of the deposited data

How the results depend on the processing

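No paired analysis was possible because no treatment was sequenced more than once, and for that reason no library was left out. The alternative of summing clusters was not run, since each protocadherin cluster has 1 gene in the table. *Pcdh18* remained past 2-fold by TGF-β under all the alternatives, and by GDF15 under all but the removal of the length trend and of the length and GC trend, which left 0 genes of the family past it. Past 2 local spreads by GDF15 was 1 gene under either removal, an alternative chosen after seeing the data. Lower pseudocounts added low genes. Past 2-fold by GDF15 were 2 genes at a pseudocount of 0.1 (*Pcdh18* and *Pcdha4*), 6 with none, and 4 among those with at least 10 fragments (*Pcdh18*, *Fat4*, *Pcdha4* and *Celsr3*), a setting chosen after seeing the data. By TGF-β there were 3 (*Pcdh18*, *Cdh1* and *Pcdha4*), 7 and 5 (*Pcdh18*, *Fat4*, *Cdh1*, *Cdh17* and *Pcdha4*), and between the stimuli 1 (*Cdh1*), 3 and 2 (*Cdh1* and *Cdh17*). Past 1.5-fold by GDF15 were 2 at 0.1 and 10 with no pseudocount, by TGF-β 2 at 0.5, 4 at 0.1, 9 with none and 2 with the running median removed (*Pcdh18* and *Pcdh19*), and between the stimuli 1 at 0.5, 2 at 0.1 and 8 with none. The median of the 4 expressed genes stayed between 0.33 and 0.50 by GDF15 and between 0.47 and 0.57 by TGF-β. Among 432 recomputed values of single genes, the sign differed from that reported in 38, none of them larger than 0.12 as reported, and 36 of the 38 had a trend in length, or in length and GC content, removed. That trend was fitted on genes that average an FPKM of 1 or more, so below this level it exceeds the small changes by construction and says nothing about those genes. Depth limits genes under an FPKM of about 0.1, where a library holds few fragments, and the missing replicates limit all others.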
